A study of Mus musculus with 6 samples.

Results

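The genes described here are 44 mouse genes of protein folding and stress sensing in the endoplasmic reticulum (ER). They were taken by gene symbol, and a probe counted as measured when its detection p was 0.05 or less on at least 1 array. By that rule 38 of the 44 genes were measured, on 54 of the 20308 probes that passed the same filter. No probe with a passing detection p carried the name of Dnajb11, Canx, Ero1l, Edem3, Derl1 or Derl3, so these 6 genes are named only.

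The cells were 3T3-CrT cells, mouse fibroblasts of the 3T3 line that stably overexpress the creatine transporter (CrT), and all 6 cultures carried this transgene and were kept in high-glucose medium with serum, G418 and puromycin. Of 6 wells, 3 were given 5 mM creatine monohydrate (Cr) in growth medium for 3 h and 3 remained untreated. Total RNA of each well was hybridized to 1 Illumina Mouse WG-6 v2 array. The study used these arrays to search for transcripts that respond to saturating Cr. The submitters describe replicate wells, and nothing says that these were separate cultures, so a p-value here reflects variation from well to well, which may be technical.

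Proteins that enter the secretory pathway pass through the Sec61 channel into the ER, where chaperones and disulfide isomerases fold them. Molecules that do not fold are passed back to the cytosol and degraded, a route called ER-associated degradation (ERAD). When unfolded protein accumulates, the membrane sensors IRE1, PERK and ATF6 start the unfolded protein response, which raises the transcripts of chaperones and ERAD components. Secretory cells such as fibroblasts, which export collagen, use this machinery at all times.

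Many of these genes carry the ER stress element, a promoter motif bound by cleaved ATF6 together with NF-Y. RefSeq promoter windows (GRCm38.p6, 250 bases before to 50 bases after each start site) were at hand for 36 of the 44 genes. The element is CCAAT and CCACG separated by 9 free bases, and searched on both strands it was in 9 of these 36 windows, against 29 of the 17492 windows of all coding genes (0.166%). A second form, ATTGG and CCACG separated by 1 free base, was in 2 of the 36, against 0.0629% of coding genes. TGACGTGG, the core bound by XBP1, was in 0 of the 36 windows (0.823% of coding genes), and TGATGCAA, 1 form of the element bound by ATF4 dimers, was in 1 of them (1.01% of coding genes). A match describes letters and is not evidence of binding. Of the 9 genes with the first element 7 were measured, and their 8 matches are shown. Only exact letters were searched, so these genes are not a full list of the targets of ATF6. Each is given in the orientation of the motif, with its fixed letters in capitals and the spacer in lower case.
Hspa5, chr2:34772025-34772043, + strand gene: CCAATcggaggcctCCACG
Hsp90b1, chr10:86705533-86705551, - strand gene: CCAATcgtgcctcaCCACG
Hsp90b1, chr10:86705638-86705656, - strand gene: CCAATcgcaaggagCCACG
Calr, chr8:84847075-84847093, - strand gene: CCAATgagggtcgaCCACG
Creld2, chr15:88819520-88819538, + strand gene: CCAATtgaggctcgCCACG
Dnajc3, chr14:118937827-118937845, + strand gene: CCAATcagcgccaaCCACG
Pdia6, chr12:17266491-17266509, + strand gene: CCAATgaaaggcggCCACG
Syvn1, chr19:6046532-6046550, + strand gene: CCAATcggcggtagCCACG

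The whole stretch of 250 bases before the start site is shown for 3 genes, on the strand of the gene. Herpud1 and Dnajb9 had the lowest unadjusted p-values of the measured genes, and Hspa5 is the classic target of the response. Capitals mark the fixed letters of any match to the 4 motifs. Herpud1 held the second ER stress element in the gene's direction and TGATGCAA on the opposite strand, which therefore reads TTGCATCA. Hspa5 held the first element, beginning 65 bases before the start site. Dnajb9 held a match to none of the 4 motifs in this stretch.
Herpud1, chr8:94386179-94386428, + strand gene: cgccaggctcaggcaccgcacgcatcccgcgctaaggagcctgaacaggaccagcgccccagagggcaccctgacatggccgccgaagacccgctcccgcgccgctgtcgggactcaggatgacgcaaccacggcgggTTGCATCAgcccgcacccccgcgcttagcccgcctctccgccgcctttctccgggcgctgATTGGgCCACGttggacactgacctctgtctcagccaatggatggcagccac
Dnajb9, chr12:44210069-44210318, - strand gene: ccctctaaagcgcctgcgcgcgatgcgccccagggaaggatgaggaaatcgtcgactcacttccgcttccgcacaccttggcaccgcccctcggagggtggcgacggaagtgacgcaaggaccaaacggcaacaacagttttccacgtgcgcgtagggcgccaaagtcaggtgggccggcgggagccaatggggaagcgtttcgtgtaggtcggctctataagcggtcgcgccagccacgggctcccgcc
Hspa5, chr2:34771840-34772089, + strand gene: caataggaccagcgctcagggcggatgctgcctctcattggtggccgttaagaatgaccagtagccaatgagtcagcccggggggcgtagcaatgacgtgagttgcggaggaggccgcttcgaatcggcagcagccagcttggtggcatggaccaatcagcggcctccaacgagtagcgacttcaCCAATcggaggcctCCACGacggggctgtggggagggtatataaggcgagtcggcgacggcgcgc

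Median signals, which lie near background, were 152 to 161 on the Cr arrays and 157 to 167 on the untreated arrays, with 17289 to 17700 and 16396 to 17249 detected probes. Summed over the genes tested, the signal was 18200000 to 19200000 on the Cr arrays and 16200000 to 20600000 on the untreated arrays, with untreated replicate 1 the brightest and untreated replicate 3 the dimmest, and the fitted scales were 0.956 to 1.02 and 0.892 to 1.19. Untreated replicate 1 also stood apart on the first principal component, with a score of -18.9 against -2.64 to 10.9 for the other 5 arrays, and received the lowest array weight. Of 10 fibroblast markers 8 were measured and 7 were detected on all 6 arrays, with a summed signal of 41200 to 45500 on the Cr arrays and 35300 to 48700 on the untreated arrays. Of the markers of other cell types the arrays measured 5 of 8 for endothelium and 4 of 8 each for epithelium and skeletal muscle. For macrophages it was 2 of 8, for adipocytes 1 of 8 and for plasma cells 1 of 6. Detected on all 6 arrays were 2 epithelial markers, 1 of macrophages and 1 of plasma cells. For endothelium, skeletal muscle and adipocytes 0 were detected on all 6 arrays. Summed signals on the Cr arrays were 819 to 940 for endothelium, 1020 to 1040 for epithelium, 963 to 1090 for macrophages and 369 to 395 for plasma cells. On the untreated arrays they were 805 to 851, 903 to 1110, 940 to 1210 and 356 to 529. Fewer cells of a type and less RNA per cell cannot be told apart in such samples.

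The question put to these 38 genes was whether 5 mM Cr altered their transcripts within 3 h. Of their 54 probes 0 passed in limma, with Benjamini-Hochberg adjustment over the whole array and a threshold of 0.05, while 6 of all 20308 probes passed (0.0295%). The lowest adjusted p of any of the 54 probes was 0.891. At an unadjusted p of 0.05 or less there were 3 probes, of Herpud1 and Dnajb9, all lower with Cr, set beside 5.04% of all probes. With the brightest probe of each gene, 2 of the 38 genes had an unadjusted p of 0.05 or less, against 5.27% of the 10585 genes tested. Both shares of these genes were near the background.

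The size of the differences was also that of the array as a whole. The median log2 fold change, Cr minus untreated, was -0.01 over the 38 genes and 0.00 over all 10585 genes, and 18 of the 38 lay above 0 and 20 below. The 18 include Hspa13 and Eif2ak3, whose probes passed the detection filter through Cr arrays alone. The median absolute log2 fold change was 0.06 for these genes and 0.06 for all genes, with a median standard error of 0.09 in both. The 95% confidence intervals describe variation between wells in this fit. For all 54 probes the interval lay within 0.5 of 0 on the log2 scale, as it did for 98.8% of all genes. No probe lay outside -0.23 to 0.16 in this fit. For dim probes the intervals do not bound the change, since values differed between normalizations (Edem1 0.16 here and 0.34 with neqc normalization). The probes of Hspa13 and Eif2ak3 and 1 of Atf6 had no detected untreated array, so theirs are not intervals of a fold.

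**Figure D1:**
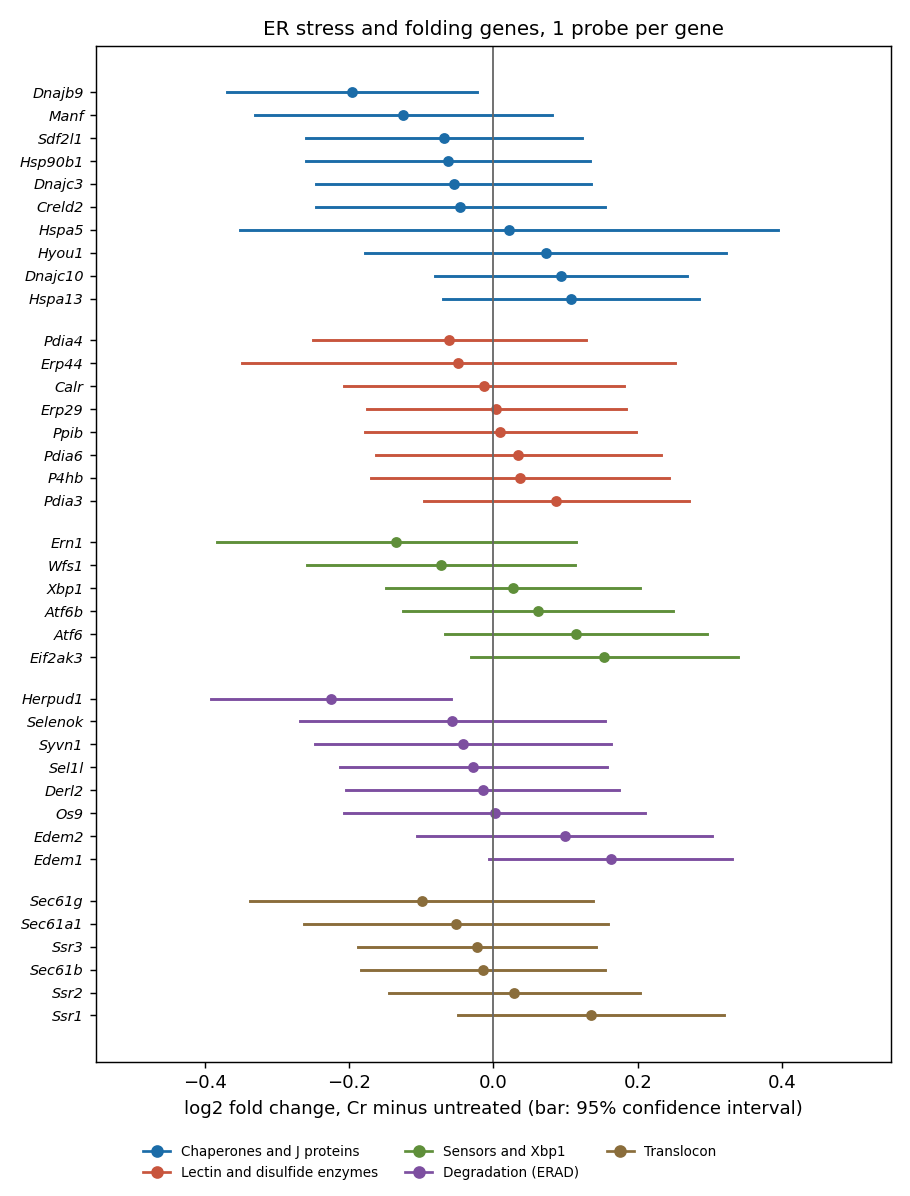
Log2 fold change of the 38 measured genes, Cr minus untreated, on the x axis, with 1 row per gene (brightest probe), points for the estimates, bars for 95% confidence intervals and colors for the roles of the genes. Herpud1 and Dnajb9 are the genes whose interval does not reach 0, and every interval stays within 0.5 of it. The points of Hspa13 and Eif2ak3 are measured differences from untreated values at background and are not folds.

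Probes of 1 gene were compared with each other. Of the 13 genes with more than 1 probe, 8 had the same sign on all of their probes, among them Herpud1, Dnajb9, Creld2, Atf6, Dnajc10, Pdia6, Derl2 and Ssr1. The other 5 were Edem2, Sec61a1, Sec61b, Sel1l and Ssr3. Probes of a gene were read on the same arrays, so their signs are not independent. The dimmer Atf6 probe was detected on 1 Cr array and on 0 untreated arrays, so its sign adds no support for Atf6. The share of such genes over the whole array was not computed. Whether 8 of 13 is more than unrelated probes would give was not tested. The widest gap between probes of a gene was 0.15 on the log2 scale, for the 4 probes of Edem2.

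Herpud1 encodes a membrane protein that scaffolds the Hrd1 ubiquitin ligase complex of ERAD and is an early target of the unfolded protein response. Its probe ILMN_2790241 was at 84.6%, 86.9% and 85.1% of the untreated geometric mean on the 3 Cr arrays and at 101%, 96.6% and 103% on the 3 untreated arrays. The Cr arrays lay close together and all below the untreated arrays. The log2 fold change was -0.23 (standard error 0.08, 95% confidence interval -0.39 to -0.06, unadjusted p = 0.0113, adjusted p = 0.891 from limma). That is 85.5% of the untreated level (76.2 to 96.0). The difference was therefore larger than the spread within the groups but did not pass when adjusted over the array. A two-sided exact permutation test gave p = 0.1, the smallest that 3 arrays against 3 allow. With any single array left out the log2 fold change lay between -0.25 and -0.21.

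The second Herpud1 probe, ILMN_2790246, was at 84.0%, 94.6% and 90.1% on the Cr arrays and at 103%, 96.2% and 101% on the untreated arrays. These groups did not overlap either, although Cr replicate 2 lay close to untreated replicate 2. The log2 fold change was -0.16 (standard error 0.08, adjusted p = 0.986 from limma). Before normalization the signals of the first probe were 3280, 3520 and 3530 with Cr and 4450, 3910 and 3430 in untreated wells, so the separation appears only after each array's scale is taken into account. The signals of the second probe overlapped too, at 2360, 2770 and 2700 with Cr and 3280, 2820 and 2460 in untreated wells.

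Dnajb9 encodes ERdj4, a J-domain co-chaperone of BiP that holds IRE1 inactive and assists ERAD. Its probe ILMN_2829636 was at 83.9%, 85.9% and 92.3% of untreated on the Cr arrays and at 102%, 103% and 95.7% on the untreated arrays. After normalization all Cr arrays were below all untreated arrays, and the log2 fold change was -0.20 (standard error 0.08, unadjusted p = 0.0292, adjusted p = 0.948 from limma), which is 87.3% of the untreated level. Before normalization the groups overlapped, with signals of 985, 1050 and 1160 with Cr and 1350, 1260 and 985 in untreated wells. The second probe, ILMN_2510875, was at 86.1%, 77.3% and 96.1% on the Cr arrays and at 106%, 91.8% and 102% on the untreated arrays. Here Cr replicate 3 lay above untreated replicate 2, so the groups overlapped. The log2 fold change was -0.21 (standard error 0.10, unadjusted p = 0.0407, adjusted p = 0.962 from limma).

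The groups were also compared by whether their arrays overlapped. Of the 54 probes 3 had every Cr array below every untreated array, both Herpud1 probes and ILMN_2829636 of Dnajb9, against 5.15% of all probes. In the other direction there were 2, those of Edem1 and Hspa13, against 5.59% of all probes. The Hspa13 probe passed the detection filter through the Cr arrays alone, and its untreated values were all at background.

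**Figure D2:**
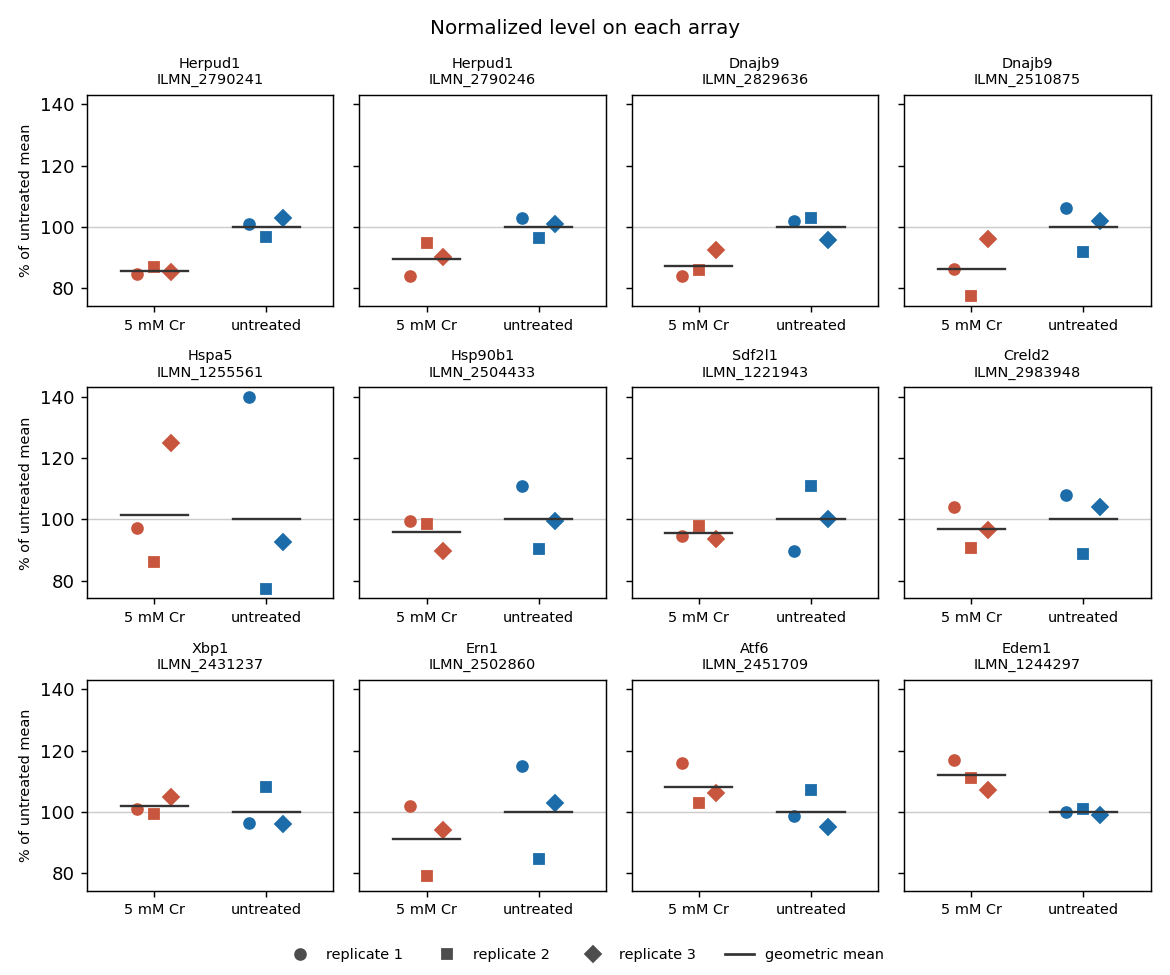
Normalized level of 12 probes on each array as a percentage of the untreated geometric mean (y axis), with the 5 mM Cr arrays left of the untreated arrays, symbols for replicate numbers and horizontal bars for geometric means. Herpud1 and ILMN_2829636 of Dnajb9 separate the groups downward and Edem1 upward, whereas Hspa5 spreads from 77.3% to 140% within the untreated arrays alone.

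Among the chaperones, Hspa5 encodes BiP, the ER member of the HSP70 family whose transcript is the usual readout of ER stress. It was at 97.3%, 85.9% and 125% of untreated on the Cr arrays and at 140%, 77.3% and 92.5% on the untreated arrays. The Cr values lay inside the range of the untreated ones, and untreated replicate 1 was the highest of all 6. The log2 fold change was 0.02 (standard error 0.17, 95% confidence interval -0.35 to 0.39, adjusted p = 0.997 from limma), the widest interval of the 38 genes. This value rested on single arrays, being 0.25 without untreated replicate 1 (unadjusted p = 0.0537, adjusted p = 0.75 from limma) and -0.16 without untreated replicate 2.

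Hsp90b1 encodes GRP94, the ER paralog of HSP90. It was at 99.4%, 98.4% and 89.7% on the Cr arrays and at 111%, 90.4% and 99.5% on the untreated arrays, a log2 fold change of -0.06 (standard error 0.09). The groups overlapped, and the value was 0.01 without untreated replicate 1. Hyou1, which encodes a nucleotide exchange factor for BiP, had 0.07 with all arrays. It had 0.19 without untreated replicate 1 and -0.04 without untreated replicate 2. Hspa13, an HSP70-related gene of the ER, was at 106%, 117% and 101% on the Cr arrays and at 99.8%, 101% and 99.3% on the untreated arrays. Its probe was detected on 2 Cr arrays and on 0 untreated arrays. Set against the detection floor, the bound on the fold of the Cr mean was 1.01, which carries no sampling error. The 95% confidence interval of the measured log2 difference, -0.07 to 0.29, included 0 (adjusted p = 0.986 from limma), so no increase was shown.

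The remaining J proteins and small folding factors also gave values near 0. Dnajc3, which encodes a co-chaperone also known as an inhibitor of PERK, had a log2 fold change of -0.06. Dnajc10 encodes ERdj5, a disulfide reductase of ERAD, and its 3 probes gave 0.09, 0.01 and 0.15. On the last of these, ILMN_3051651, it was at 106%, 118% and 109% on the Cr arrays and at 92.9%, 112% and 96.1% on the untreated arrays, with untreated replicate 2 above 2 of the Cr arrays.

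Sdf2l1, Creld2 and Manf are small ER proteins whose genes are induced by ER stress. Sdf2l1 was at 94.7%, 97.7% and 93.7% on the Cr arrays and at 89.8%, 111% and 100% on the untreated arrays, so the Cr values lay inside the untreated range, with a log2 fold change of -0.07. Creld2 was at 104%, 90.6% and 96.6% on the Cr arrays and at 108%, 88.7% and 104% on the untreated arrays with its brightest probe, and its 2 probes gave -0.05 and -0.06. Manf was at 84.8%, 86.1% and 106% on the Cr arrays and at 103%, 93.8% and 103% on the untreated arrays, a log2 fold change of -0.13. Its probe was dim, detected on 1 Cr array and on 2 untreated arrays, and Cr replicate 3 was its highest value.

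Over the 10 measured chaperone genes the median log2 fold change was -0.05, with 6 below 0. Of these genes 5 had their highest value on untreated replicate 1, and without that array the median was 0.01. Over all 38 genes 12 were highest on that array (31.6%), against 23.9% of all genes tested. What set untreated replicate 1 apart was not tested.

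**Figure D3:**
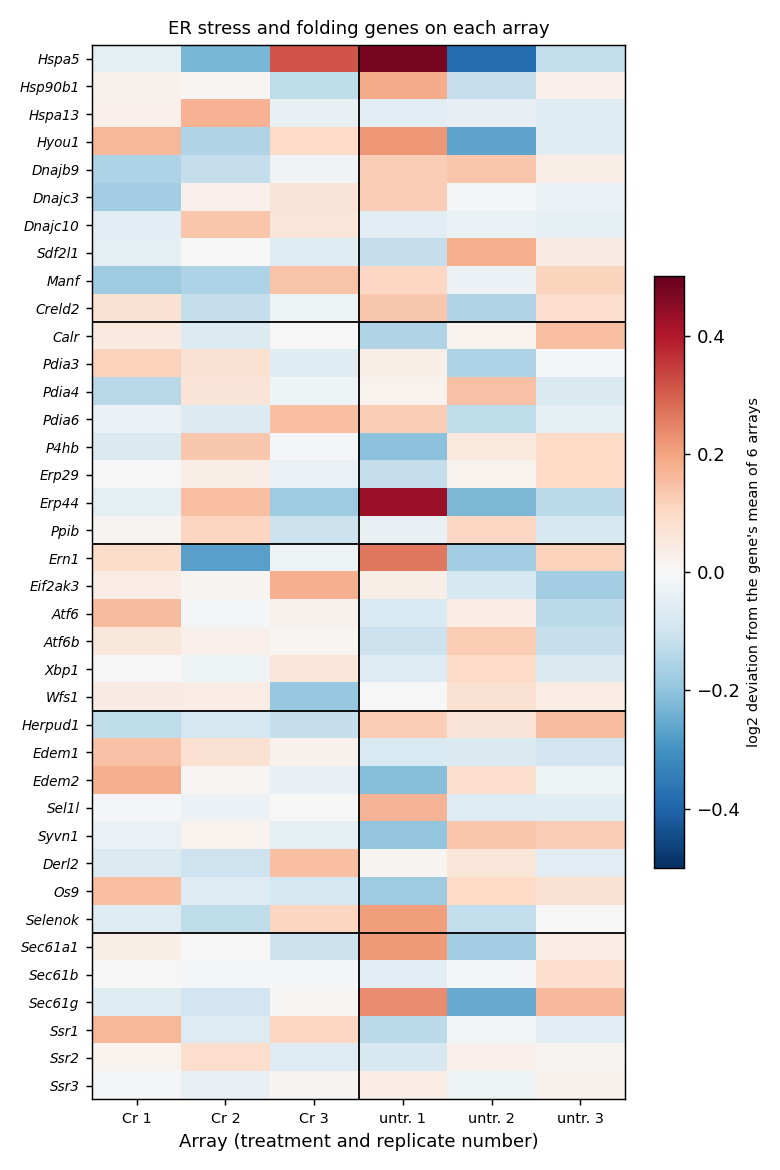
Log2 deviation of each gene from its mean over the 6 arrays, with genes in rows, grouped by role between the black lines, and arrays in columns, the Cr arrays left of the untreated arrays. The strongest colors stand in the rows of Hspa5 and Erp44 on untreated replicate 1, at 140% and 132% of the untreated mean, and no block of rows differs between the groups of columns.

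The enzymes of glycoprotein and disulfide folding also lay near 0. Calr, which encodes the lectin chaperone calreticulin, had a log2 fold change of -0.01, and Pdia3, the oxidoreductase that works with it, 0.09. The disulfide isomerase genes Pdia4 and P4hb had -0.06 and 0.04, and the 2 probes of Pdia6 had 0.03 and 0.06. Erp29, a thioredoxin-fold protein without the isomerase active site, had 0.00, and Ppib, which encodes the prolyl isomerase cyclophilin B, 0.01. Erp44, which retains Ero1 oxidases in the early secretory pathway, was at 95.1%, 109% and 87.0% on the Cr arrays and at 132%, 84.2% and 89.7% on the untreated arrays. Its log2 fold change was -0.05 with all arrays and 0.14 without untreated replicate 1, which was far above its other untreated values. Without untreated replicate 2 it was -0.17. The median of the 8 measured genes was 0.01, and -0.03 without that array.

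The 3 sensors did not share a direction. Ern1, which encodes IRE1, the kinase and endoribonuclease that splices the Xbp1 transcript, was at 102%, 79.1% and 93.9% on the Cr arrays and at 115%, 84.5% and 103% on the untreated arrays. The groups overlapped, and the log2 fold change was -0.13 (standard error 0.12, adjusted p = 0.986 from limma), or -0.03 without untreated replicate 1. Eif2ak3 encodes PERK, the kinase that phosphorylates the initiation factor eIF2α. It was at 108%, 107% and 119% on the Cr arrays and at 108%, 99.3% and 93.4% on the untreated arrays, with untreated replicate 1 level with the Cr arrays. Its probe was detected on 1 Cr array and on 0 untreated arrays, so no fold is given for it, and the adjusted p was 0.986 from limma.

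Atf6, the transcription factor that is cut from the Golgi membrane on stress, was at 116%, 103% and 106% on the Cr arrays and at 98.7%, 107% and 94.9% on the untreated arrays. Untreated replicate 2 lay above 2 of the Cr arrays, and the log2 fold change was 0.11 (standard error 0.08). A dimmer Atf6 probe was detected on 1 Cr array and on 0 untreated arrays and gives no fold. The related gene Atf6b had a log2 fold change of 0.06. Xbp1, the transcription factor downstream of IRE1, was at 101%, 99.4% and 105% on the Cr arrays and at 96.5%, 108% and 96.1% on the untreated arrays, a log2 fold change of 0.03 (standard error 0.08). Whether its probe tells the spliced and unspliced transcripts apart is not given in the sources used here. Wfs1, which encodes the ER membrane protein wolframin, had -0.07. The median of these 6 genes was 0.04, and 0.01 without untreated replicate 1. Both medians include Eif2ak3, whose probe had no detected untreated array.

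Apart from Herpud1, the ERAD genes were spread on both sides of 0. Edem1, which encodes a lectin that hands misfolded glycoproteins to the degradation machinery, had the highest log2 fold change of the measured genes with all arrays, though not without untreated replicate 1, where it was 0.15 against 0.25 for Hspa5. It was at 117%, 111% and 107% of untreated on the Cr arrays and at 100%, 101% and 99.1% on the untreated arrays, and the groups did not overlap. The log2 fold change was 0.16 (standard error 0.08, 95% confidence interval -0.01 to 0.33, unadjusted p = 0.0577, adjusted p = 0.985 from limma). Its signals, background included, were 225, 223 and 223 on the Cr arrays and 212, 215 and 193 on the untreated arrays, so it was a dim probe. Its value differed between normalizations, being 0.34 with neqc (adjusted p = 0.733 from limma), 0.20 with normexp and median scaling and 0.14 with log2 and quantile normalization, and the cause was not tested.

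The relative of Edem1, Edem2, had 4 probes with 0.10, 0.03, -0.05 and 0.10. Sel1l and Syvn1 encode the adaptor and the ubiquitin ligase (Hrd1) of the main ERAD complex. The probes of Sel1l gave -0.03 and 0.05. Syvn1 had -0.04, or -0.15 without untreated replicate 1 and 0.02 without untreated replicate 2. Derl2, a membrane protein of the same route, had -0.01 and -0.11 on its 2 probes, the lectin gene Os9 had 0.00, and Selenok, the current name of Selk and a selenoprotein of the ER membrane, had -0.06. The median of the 8 measured ERAD genes was -0.02, with Herpud1 and Edem1 at the ends of its range.

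Of the translocon genes, Sec61a1, Sec61b and Sec61g encode the 3 subunits of the Sec61 channel. The probes of Sec61a1 gave -0.05 and 0.05, those of Sec61b -0.01 and 0.05, and Sec61g had -0.10. Ssr1, Ssr2 and Ssr3 encode subunits of the TRAP complex, which sits beside the channel. The brighter Ssr1 probe was at 117%, 100% and 113% on the Cr arrays and at 95.8%, 104% and 101% on the untreated arrays, with Cr replicate 2 inside the untreated range. Its 2 probes gave log2 fold changes of 0.14 and 0.12, Ssr2 gave 0.03, and the 2 probes of Ssr3 gave -0.02 and 0.06. The median of the 6 genes was -0.02.

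**Figure D4:**
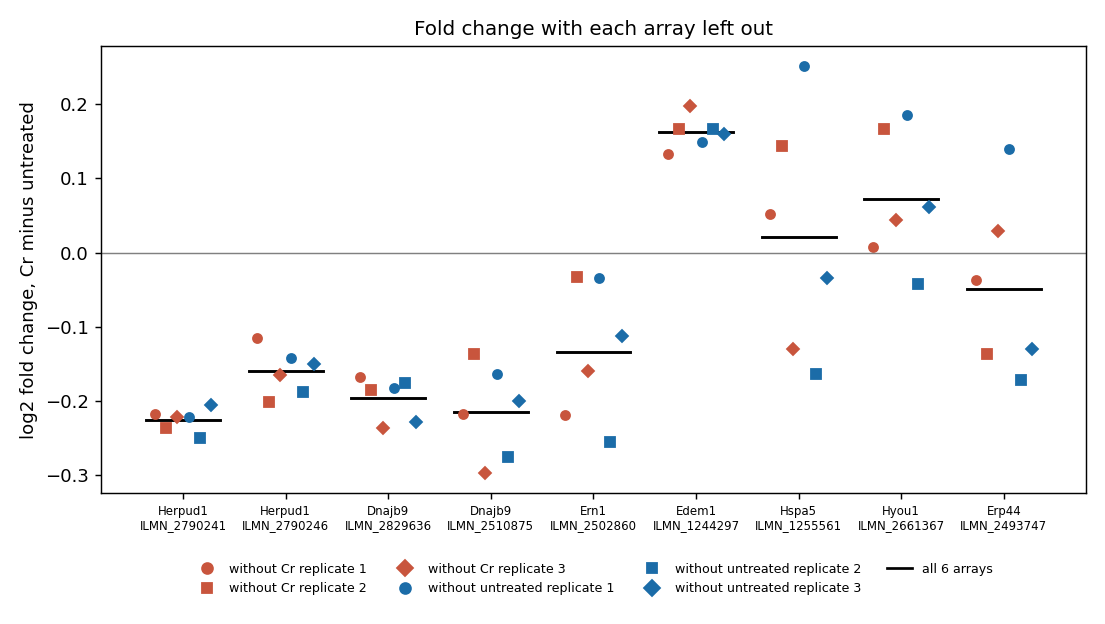
Log2 fold change, Cr minus untreated (y axis), of 9 probes (x axis) with each of the 6 arrays left out in turn (symbols) and with all arrays (black bars). The values of Herpud1, Dnajb9, Ern1 and Edem1 stay on their side of 0, whereas those of Hspa5, Hyou1 and Erp44 cross it.

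The values were next read by promoter motif. The 7 measured genes with the first ER stress element had log2 fold changes of -0.06 to 0.03, with a median of -0.04, and 0 of the 7 had an unadjusted p of 0.05 or less, set beside 5.27% of all genes tested. This narrow range rested on single untreated arrays. Without untreated replicate 1 the 7 ran from -0.15 for Syvn1 to 0.25 for Hspa5. Without untreated replicate 2 Hspa5 had -0.16, Hsp90b1 -0.14, Creld2 -0.13 and Syvn1 0.02. Outside the list 20 coding genes held the element, of which 6 were measured, with a median of 0.01, and 1 of the 6, Pan2 at 0.20, had an unadjusted p under the same limit (0.0264). Herpud1, which holds the second element, and Dnajb9, which holds a match to none of the 4 motifs, had values of -0.23 and -0.20.

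Further genes of the secretory route and of stress signalling were read from the same fit, with 1 probe per gene, and none of them passed the threshold. The integrated stress response is the transcriptional arm downstream of PERK and other eIF2α kinases, through the factor ATF4. All 11 of its listed genes were measured, 9 of them below 0, with a median of -0.09 (-0.12 without untreated replicate 1), against 0.00 for all genes tested, of which 48.7% were below 0. The 2 above 0 were Nupr1 at 0.16 and Trib3 at 0.13. Every Cr array lay above every untreated array for 1 of the 11, Nupr1, against 645 of the 10585 genes tested. Every Cr array lay below every untreated array for 4 of the 11, against 562 of the 10585. Of these 11 genes 2 had an unadjusted p of 0.05 or less, both lower with Cr, set beside 5.27% of all genes.

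Atf3, a stress-inducible repressor of the ATF family, was at 86.7%, 83.6% and 85.7% of untreated on the Cr arrays and at 99.8%, 92.3% and 109% on the untreated arrays. The groups did not overlap, and the log2 fold change was -0.23 (standard error 0.08, unadjusted p = 0.0164, adjusted p = 0.940 from limma). Cebpb, a bZIP partner of these factors, was at 91.2%, 83.3% and 82.6% on the Cr arrays and at 113%, 97.1% and 91.3% on the untreated arrays, with Cr replicate 1 just below untreated replicate 3. Its log2 fold change was -0.22 (unadjusted p = 0.0292, adjusted p = 0.948 from limma). Atf4 itself had -0.06, and Ddit3, which encodes the factor CHOP of prolonged ER stress, -0.06, with a standard error of 0.11.

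The other lists had medians between -0.09 and -0.01. Of 8 measured genes of the oligosaccharyltransferase, which attaches N-glycans, the median was -0.02, with Rpn2 at 0.11 and Rpn1, on a dim probe, at -0.15. Of 13 genes of the signal recognition particle and signal peptidase the median was -0.08, with Srp19 at 0.14 and Sec11c at -0.16, and 7 of the 13 were highest on untreated replicate 1. Of 8 genes of the COPII coat, which buds cargo from the ER, the median was -0.03. The COPII gene Sec23a was at 102%, 122% and 127% on the Cr arrays and at 95.8%, 102% and 103% on the untreated arrays, a log2 fold change of 0.22 (unadjusted p = 0.0298, adjusted p = 0.948 from limma). Its groups overlapped through Cr replicate 1, and Sar1b had 0.08.

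Of 10 further oxidoreductases the median was -0.01, with Tmx3 at -0.17 and Qsox1 at 0.13. Of 10 further ERAD factors it was -0.01, with Rnf139 at -0.08 and Herpud2 at 0.05. Of 9 genes of ER calcium handling it was -0.09, and -0.00218 without untreated replicate 1, on which 6 of the 9 were highest. In that list Itpr2, an inositol trisphosphate receptor, was at 117%, 114% and 112% on the Cr arrays and at 100%, 102% and 98.3% on the untreated arrays, a log2 fold change of 0.19 (unadjusted p = 0.0257, adjusted p = 0.948 from limma), and its groups did not overlap. Rcn2 was detected on 0 Cr arrays and on 1 untreated array, and no fold is given for it.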

How the data were processed

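Signals of 6 Illumina arrays were analysed, 3 from Cr-treated and 3 from untreated 3T3-CrT wells. Groups came from the submitters' labels. The deposited signal intensity of each of 45281 probes was exported by the authors from GenomeStudio without normalization, together with a detection p-value, deposited by the authors, which ranks each probe against negative controls. The authors' own processed values, background corrected and normalized with vsn, were deposited on a generalized log2 scale and served as an alternative.

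From the signals, a variance-stabilizing model with an offset and a scale per array was fitted in R 4.3.3 (least trimmed squares, quantile 0.9, 7 rounds), since the vsn package was not used here. A probe was tested when its detection p reached 0.05 or lower on any array. The moderated linear model of limma 3.58.1 compared both groups, two-sided and without covariates, and p-values were adjusted over all 20308 probes. Intervals are 95% intervals of the moderated fit, and percentages are back-transformed. The number of arrays and the spread between them limit the precision. A fold against a group without any detected array is a bound, set by the lowest detected signal of each array, and none is given where it is under 1. The scripts were tested on simulated arrays.

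Probes were named from the platform annotation, in which 16925 of the tested probes had 1 symbol, 7 had several and 3376 had none. Of the listed symbols 2 were updated through a RefSeq table. Where a gene had several probes, the brightest stood for it in counts over genes. The text names every listed gene, and gives each array for the 4 genes of lowest p in each direction, for 8 targets of the unfolded protein response and for 3 sensors. From each further list the 2 genes of lowest p are named, and also Atf4, Ddit3, Nupr1 and Trib3. The genes and lists were chosen with earlier results of these data known, so no list was tested as a set. Promoter sequences are those of RefSeq for GRCm38.p6. No slide or scan batch is given in the sources used here. Alternatives were other background corrections and normalizations, other probe filters and variance models, array weights, a replicate block and leaving out each array. Python 3.11.15 with matplotlib 3.10.9 made the figures.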

Additional observations from a re-analysis of the deposited data

How the results depend on the processing

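None of the 54 probes of the ER stress and folding genes passed the threshold of limma under any of the 16 alternatives, and between 0 and 5 had an unadjusted p of 0.05 or less. The count over all probes, 6 with all arrays and the settings described, was 0 with neqc (1145 at an unadjusted p of 0.05 or less), 12 with the deposited values, 12 with log2 and quantile normalization, 0 with normexp and median scaling (730 unadjusted), 10 without a filter, 13 with a trended robust variance, 15 with array weights and 14 with the replicate block. With 1 array left out it lay between 0 and 14, being 14 without untreated replicate 1, 1 without Cr replicate 2 and 0 without each of the others. The median log2 fold change of the 38 genes lay between -0.0122 and -0.00236 with 1 array left out, and was 0.0445 with normexp and median scaling, where the median of all genes was 0.0462, and -0.01 with the replicate block. Same-numbered arrays deviated together with correlations of 0.24, 0.31 and -0.03. Arrays of different number were not compared, so these values do not decide whether the replicate numbers are pairs. The main fit took no pairs, following the comparison of 2 groups in the study, and the replicate block is the paired alternative. Of the 38 genes 23 turned sign under at least 1 alternative, whereas 15 kept it, 9 above 0 and 6 below, among them Herpud1, Dnajb9 and Edem1. The alternatives reuse the same arrays, so a kept sign is not independent support for any of these 15 genes. The share over all genes tested is not given here. The 9 include Hspa13 and Eif2ak3, whose probes passed the filter through Cr arrays alone, so their steady sign is not support. With 3 arrays per group, the 95% confidence interval of these genes reached 0.19 to either side on the log2 scale at the median, and the probes of Manf and Eif2ak3 lay close to background. The cause of these differences between settings was not tested.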
